A study of Mus musculus with 24 samples.

Results

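The genes described here are 10 that mark microglia or encode the recognition protein of the classical complement pathway: C1qa, C1qb, C1qc, Csf1r, Cx3cr1, P2ry12, Trem2, Tyrobp, Aif1 and Ctss. They were chosen by name, as every probe set that the array annotation of 2016 gives to exactly 1 of these symbols, which made 16 probe sets of 10 genes among 45037 probe sets and 18193 genes measured. C1qb and Csf1r have 3 probe sets each, Cx3cr1 and Trem2 have 2 each and the other genes have 1. RNA of male mouse brains, 12 ± 1 weeks old, was measured on 24 short-oligonucleotide arrays at zeitgeber time 6, that is 6 h after light onset, in 5 groups. Pull-down after sleep deprivation (n = 6) and pull-down control (n = 6) held polyadenylated RNA immunoprecipitated on anti-FLAG beads from brains fixed with 1% formaldehyde, which the labels call RNA of Homer1a-expressing cells. Homer1a is a truncated Homer1 protein that neurons make when they are active. Whole brain, sleep-deprived (n = 4) or control (n = 4), held total RNA extracted without a pull-down, and supernatant (n = 4) held the total RNA left after the beads were removed, which the labels call Homer1a-negative cells. Sleep deprivation lasted 6 h from light onset, by gentle handling, and controls were left undisturbed. The supernatants were kept as 1 group because the title of supernatant 13 says sleep-deprived and its source field says control. The strain, and the construct that carries the tag with the promoter that drives it, are not stated in the labels. Arrays are named by their group and the number in their title, and values are log2 intensities.

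Microglia are the resident macrophages of the brain and arise outside the neural lineage. Their survival depends on the receptor Csf1r, and they read neurons through Cx3cr1, the receptor for neuronal fractalkine, and P2ry12, a receptor for ADP that steers their processes. Trem2, a receptor for lipids and lipoproteins, signals through the adaptor Tyrobp. The C1q molecule is assembled from chains encoded by C1qa, C1qb and C1qc and starts the classical complement cascade. In the brain it is made mainly by microglia and is known to tag synapses for removal. Aif1, also called IBA1, is an actin-binding protein used to stain microglia, and Ctss, cathepsin S, is a lysosomal protease of antigen-presenting cells. No sample of isolated microglia was analysed here, so the label of these genes rests on knowledge from elsewhere and not on these arrays.

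RefSeq promoter sequences (assembly GRCm38.p6, 250 bases before to 50 bases after the gene start) were given for 7 of the 10 genes. They are shown for 3 genes that hold a motif of the macrophage lineage: C1qb and C1qc, neighbours that encode chains of one molecule, and Ctss, which holds it more than once. PU.1, encoded by Spi1, is the factor that macrophages and microglia need, and it binds purine-rich sites around GGAA. The letters GAGGAA, on either strand (TTCCTC), stood in 5 of the 7 member promoters, against 28.3% of 32851 promoters of the same length. Beside these 3 it stood in those of Aif1 and Trem2, and it did not stand in those of P2ry12 and Cx3cr1. The longer run TGAGGAAGT, or ACTTCCTCA on the other strand, which contains the shorter motif, stood in 2 of the 7, C1qc and Ctss, against 0.819% of all promoters. Capitals mark the shorter motif on either strand. A match describes these letters only and is not a measured binding site.
C1qb, chr4:136886151-136886450, minus strand: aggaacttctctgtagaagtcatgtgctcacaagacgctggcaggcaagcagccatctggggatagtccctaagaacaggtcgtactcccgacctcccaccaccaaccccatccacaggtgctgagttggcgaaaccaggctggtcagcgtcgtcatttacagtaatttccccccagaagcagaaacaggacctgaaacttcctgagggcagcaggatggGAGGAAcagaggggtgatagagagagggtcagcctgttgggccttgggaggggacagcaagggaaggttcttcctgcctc
C1qc, chr4:136892865-136893164, minus strand: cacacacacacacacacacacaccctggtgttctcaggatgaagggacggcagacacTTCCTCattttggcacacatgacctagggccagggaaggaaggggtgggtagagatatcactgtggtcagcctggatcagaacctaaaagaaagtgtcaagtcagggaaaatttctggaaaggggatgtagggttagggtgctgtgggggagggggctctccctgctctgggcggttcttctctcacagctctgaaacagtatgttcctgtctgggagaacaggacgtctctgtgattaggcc
Ctss, chr3:95526536-95526835, plus strand: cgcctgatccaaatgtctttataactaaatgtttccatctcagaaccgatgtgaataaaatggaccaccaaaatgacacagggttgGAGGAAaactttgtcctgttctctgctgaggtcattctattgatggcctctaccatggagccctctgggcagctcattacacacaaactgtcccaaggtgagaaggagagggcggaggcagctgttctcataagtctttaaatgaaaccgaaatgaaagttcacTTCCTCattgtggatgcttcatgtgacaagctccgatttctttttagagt
The genes C1qa, C1qc and C1qb follow each other with no other gene between them on chromosome 4 of that annotation.

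The arrays of the 3 extracts differed over all probe sets, and every comparison of pull-down below holds that difference. Array medians lay between 4.37 and 5.70 in pull-down, with a mean of 4.98 ± 0.38 (SD, n = 12). They averaged 6.13 ± 0.07 in the 8 whole-brain arrays and 6.15 ± 0.05 in the 4 supernatants. The 18S ribosomal RNA control, which carries no poly(A) tail, read 6.83 to 11.14 in pull-down, 13.85 ± 0.05 in whole brain and 14.29 ± 0.09 in supernatant. The 3′ minus 5′ difference of Gapdh, larger where RNA is short, was 4.92 ± 0.78 in pull-down, 2.75 ± 0.16 in whole brain and 2.43 ± 0.13 in supernatant. In the deposited values the median difference of all probe sets was −0.78 for pull-down minus whole brain and −0.85 for pull-down minus supernatant. Quantile normalization of all 24 arrays moved these medians to 0.09 and 0.02, and centring each array on its median moved them to 0.37 and 0.32. The deposited values carry no detection calls. Genes of testis, milk, tooth enamel and the inactive X, which male brain should lack, averaged 4.33 ± 0.48 and 4.47 ± 0.58 in pull-down after sleep deprivation and in pull-down control (SD, n = 6 each, 11 genes), 4.94 ± 0.10 and 5.14 ± 0.14 in the whole-brain groups in the same order, and 5.05 ± 0.10 in supernatant. The pull-down means of Aif1, C1qa, C1qb 1417063_at, P2ry12, Csf1r 1419873_s_at, Csf1r 1423593_a_at, Cx3cr1 1450019_at and both Trem2 probe sets lay within 1 SD of that mean in pull-down control or below it. Whether their pull-down signal was above background was not tested, so their differences are given without a fold. Where the other extracts lay well above those 11 genes, the differences may understate how far they lie apart. Cx3cr1 1450019_at lay below the 11 genes' mean there too (4.53 and 4.72 in the whole-brain groups, 4.83 in supernatant). The Trem2 probe sets read 5.15 to 5.38 in the whole-brain groups. Trem2 1421226_at differed from whole brain by −0.54, against a median of −0.56 for the 11 genes. The SD used above is that of the 11 genes' mean between arrays, and not that between genes. Single genes of the 11 averaged 3.05 (Ambn) to 7.76 (Prm1) in pull-down, with Amelx next below Prm1 at 4.91. C1qc (5.25), Cx3cr1 1450020_at (5.33) and Tyrobp (5.88) lay between Amelx and Prm1 in pull-down. Whether their signal there was above background was not tested either. The part of the array-wide difference, of RNA length and of amplification in the results below was not tested, beyond the values given under these scalings.

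The first comparison asked how much RNA of these genes was recovered with the pull-down relative to whole brain. As deposited, all 16 probe sets had less signal in pull-down (limma, adjusted p under 0.05), where 76.3% of all probe sets were lower and 8.06% higher. The median difference of the 16 was −1.54 log2 units, against −0.78 for all probe sets, with Aif1 lowest at −3.20 ± 0.21 (SE) and Trem2 1421226_at highest at −0.54 ± 0.20. In 10 of the 16 every pull-down array lay below every whole-brain array, against 27.5% of all probe sets. The count depends on the scaling: 11 were lower and 1 higher after quantile normalization, where 26.2% of all probe sets were lower and 32.3% higher, and 8 were lower and 1 higher after centring, where 18.3% were lower and 52% higher. Bulk RNA cannot tell fewer cells of a type from less RNA per cell, and this holds for every difference below.

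Against supernatant, the RNA left over from pull-downs, 14 of the 16 probe sets were lower in pull-down (limma, adjusted p under 0.05), where 67.4% of all probe sets were lower and 11.2% higher. Their median difference was −1.43, against −0.85 for all probe sets. In 9 of the 16 the pull-down arrays lay below all supernatants, against 32.1% of all probe sets. The exceptions were C1qb 1437726_x_at (−0.23 ± 0.26, adjusted p = 0.410) and Csf1r 1419872_at (0.27 ± 0.24, adjusted p = 0.305). After quantile normalization 9 were lower and 2 higher (27.6% and 27.2% of all probe sets), and after centring 7 were lower and 3 higher (18.8% and 44.1%). Both comparisons use the same 12 pull-down arrays and are not independent of each other.

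**Figure D1:**
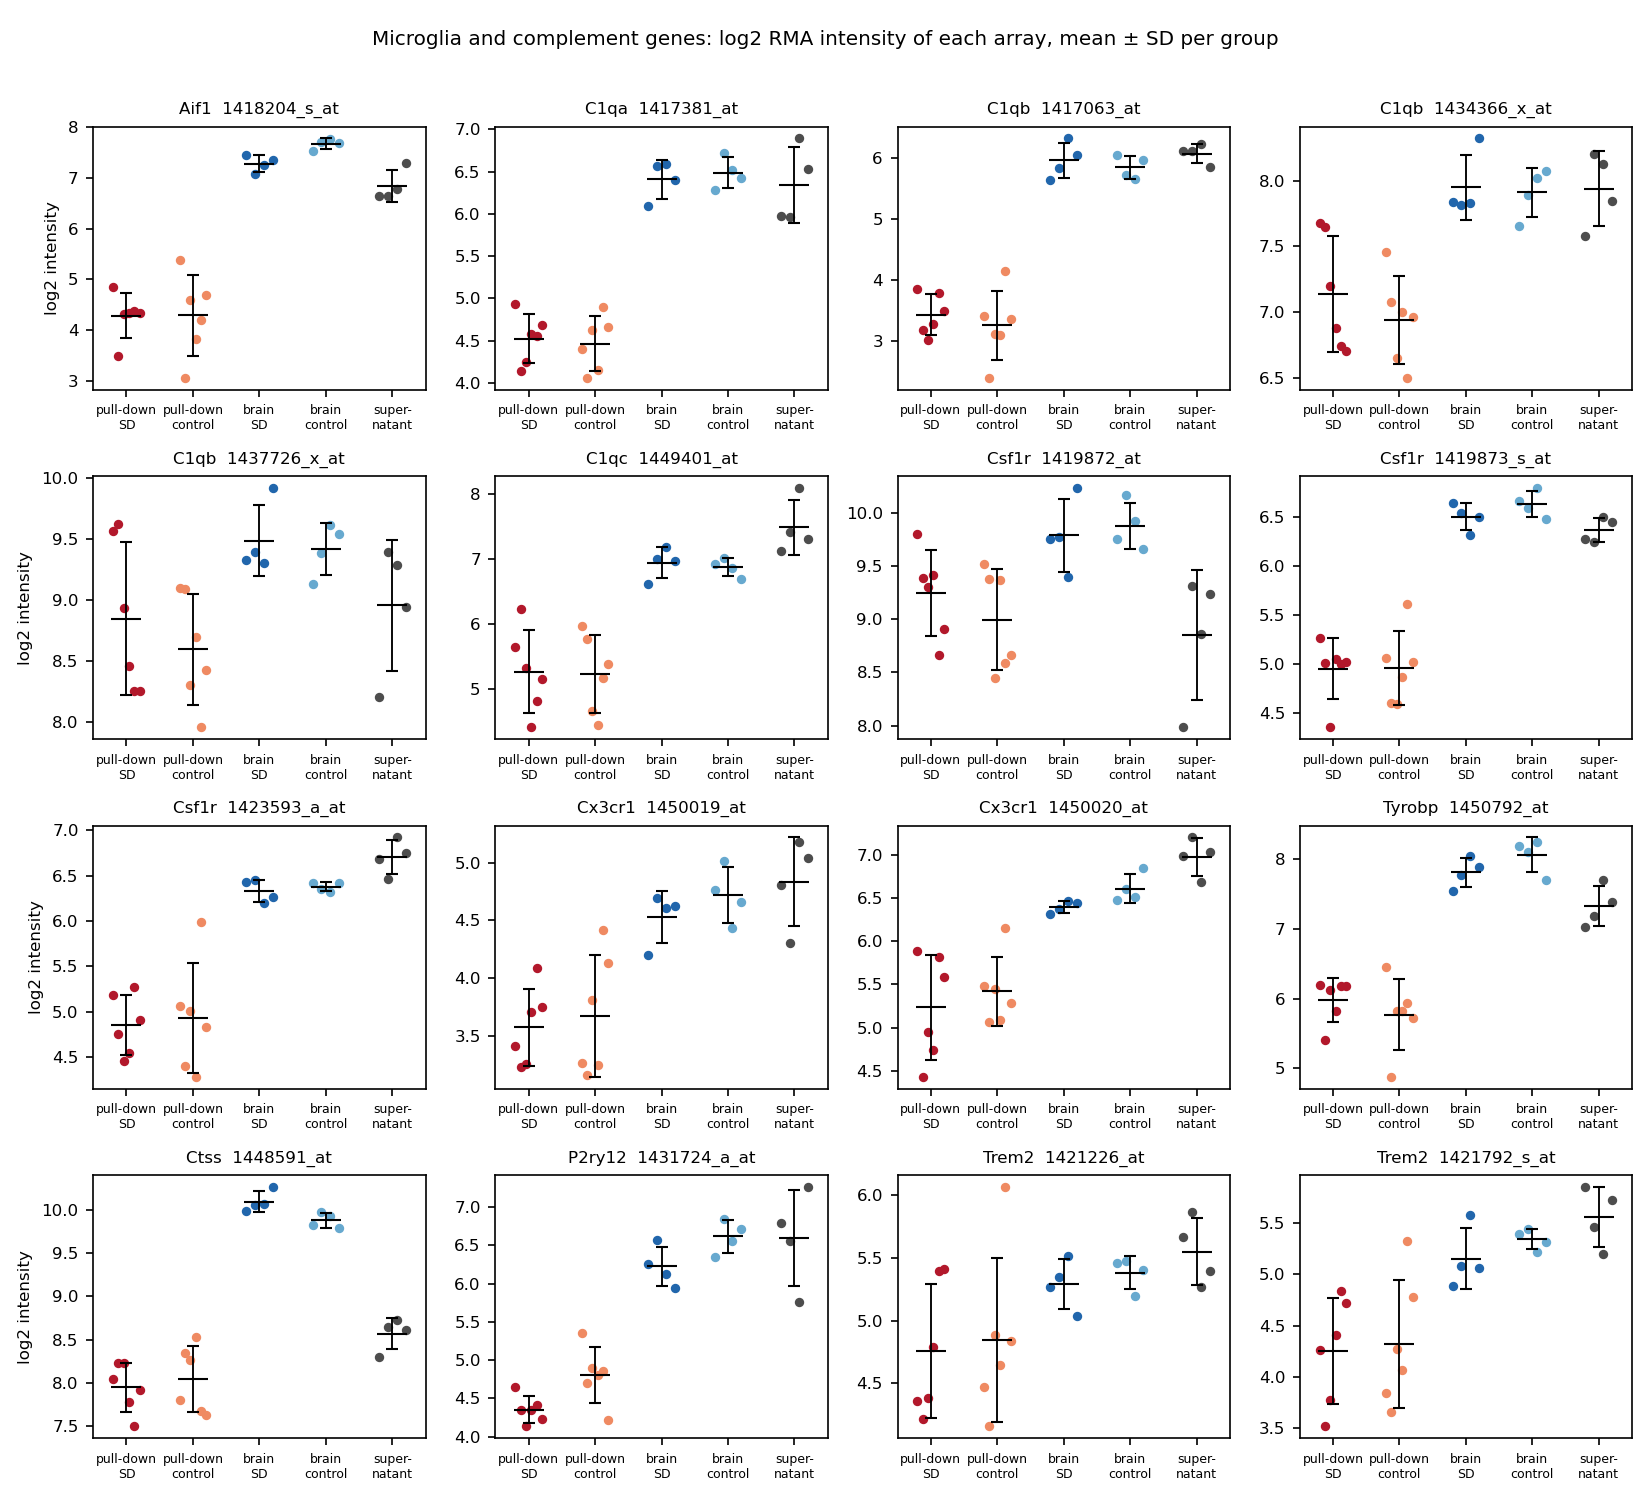
Log2 RMA intensity of the 16 probe sets in every array (points), with the mean ± SD of each group (bars), for pull-down after sleep deprivation (SD in the axis labels) and pull-down control (n = 6 each), whole brain after sleep deprivation and whole-brain control (n = 4 each) and supernatant (n = 4). Each panel has its own log2 scale, which does not start at 0, and as deposited the 2 pull-down groups had the lowest means in 15 of the 16 panels, the exception being Csf1r 1419872_at.

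The chains of C1q were low in pull-down. C1qa (1417381_at) ranged from 4.06 over a median of 4.57 to 4.93 in the 12 pull-down arrays, and from 6.09 over 6.47 to 6.72 in the 8 whole-brain arrays, and it read 6.89, 5.97, 6.53 and 5.98 in supernatants 15, 14, 16 and 13. Every pull-down array lay below every array of both other extracts. The difference was −1.95 ± 0.15 from whole brain (adjusted p = 2.1e-11) and −1.85 ± 0.19 from supernatant (adjusted p = 5.4e-09). C1qb 1417063_at ranged from 2.40 over 3.33 to 4.15 in pull-down and from 5.64 over 5.90 to 6.32 in whole brain, and it read 6.22, 6.11, 5.84 and 6.10 in supernatants 15, 14, 16 and 13. The groups did not overlap, pull-down control 4 was the lowest of all arrays, and pull-down control 11 was the highest of the pull-downs. The difference was −2.56 ± 0.17 from whole brain (adjusted p = 1.6e-12) and −2.72 ± 0.22 from supernatant (adjusted p = 5.8e-11). C1qc (1449401_at) ranged from 4.41 over 5.24 to 6.23 in pull-down and from 6.61 over 6.95 to 7.18 in whole brain, and it read 8.09, 7.41, 7.31 and 7.13 in supernatants 15, 14, 16 and 13. It was separated from both extracts as well, with differences of −1.66 ± 0.21 from whole brain (adjusted p = 9.8e-08) and −2.24 ± 0.27 from supernatant (adjusted p = 4.8e-08). C1qa and C1qb 1417063_at stayed lower than both extracts under all 3 scalings. C1qc did so against supernatant, and against whole brain it lost the call after centring (−0.51, adjusted p = 0.0916).

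The 3 probe sets of C1qb differed in their response. The x_at suffix of the other two marks probe sets whose probes can also match other sequences. C1qb 1434366_x_at averaged 7.04 ± 0.39 in pull-down and 7.93 ± 0.20 in whole brain (SD, n = 12 and 8), a difference of −0.89 ± 0.16 (SE). C1qb 1437726_x_at averaged 8.72 ± 0.54 in pull-down and 9.45 ± 0.24 in whole brain, a difference of −0.73 ± 0.21. In both the groups overlapped. Of all probe sets 43.4% had a lower difference than C1qb 1434366_x_at and 53.6% a lower one than C1qb 1437726_x_at. After centring both turned to the other sign, at 0.27 (adjusted p = 0.295) and 0.42 (adjusted p = 0.185), and neither passed there.

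Csf1r, the receptor for the growth factors CSF1 and IL-34, also gave unlike results by probe set. Csf1r 1419873_s_at ranged from 4.35 over 5.01 to 5.61 in pull-down and from 6.32 over 6.57 to 6.80 in whole brain, and it read 6.50, 6.24, 6.45 and 6.28 in supernatants 15, 14, 16 and 13. Every pull-down array was below all others, with differences of −1.62 ± 0.14 from whole brain (adjusted p = 1.5e-10) and −1.42 ± 0.18 from supernatant (adjusted p = 1.2e-07). Against supernatant the call was lost with quantile normalization (−0.27, adjusted p = 0.111) and with centring (−0.24, adjusted p = 0.154). Csf1r 1423593_a_at ranged from 4.28 over 4.87 to 5.99 in pull-down and from 6.20 over 6.39 to 6.45 in whole brain, and it read 6.92, 6.47, 6.75 and 6.68 in supernatants 15, 14, 16 and 13. These groups did not overlap either, and the differences were −1.47 ± 0.17 from whole brain and −1.81 ± 0.22 from supernatant, both lower under all 3 scalings. Csf1r 1419872_at behaved otherwise. It ranged from 8.45 over 9.34 to 9.80 in pull-down and from 9.40 over 9.76 to 10.23 in whole brain, and it read 8.87, 9.32, 9.23 and 7.98 in supernatants 15, 14, 16 and 13. Pull-down overlapped both other extracts, and supernatant 13 was the lowest array of all. Its difference was −0.71 ± 0.19 from whole brain (adjusted p = 0.00154), but 0.44 after centring (adjusted p = 0.132), and relative to supernatant it was higher with quantile normalization (0.52, adjusted p = 0.0379) and with centring (1.45, adjusted p = 0.000632).

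The receptors that read signals of neurons were low in pull-down as deposited. P2ry12 (1431724_a_at) ranged from 4.14 over 4.53 to 5.35 in pull-down and from 5.95 over 6.45 to 6.85 in whole brain, and it read 5.77, 6.56, 7.26 and 6.79 in supernatants 15, 14, 16 and 13. All pull-down arrays were below all others, and the supernatants were spread more widely than whole brain. P2ry12 differed by −1.84 ± 0.17 from whole brain (adjusted p = 2.5e-10) and by −2.01 ± 0.21 from supernatant (adjusted p = 5.0e-09), and it stayed lower than both under all 3 scalings. Cx3cr1 1450020_at ranged from 4.43 over 5.36 to 6.15 in pull-down and from 6.31 over 6.47 to 6.84 in whole brain, and it read 6.68, 7.20, 7.03 and 6.98 in supernatants 15, 14, 16 and 13. The pull-down arrays lay below all others, with pull-down control 11 nearest to them. The differences were −1.18 ± 0.18 from whole brain and −1.65 ± 0.23 from supernatant. Against whole brain, however, its difference was 0.0019 under quantile normalization and −0.02 under centring (adjusted p = 0.990 and 0.883). Cx3cr1 1450019_at averaged 3.62 ± 0.42 in pull-down and 4.63 ± 0.24 in whole brain (SD) with overlapping groups (adjusted p = 1.2e-05), and its difference was −0.19 under quantile normalization and 0.15 under centring (adjusted p = 0.149 and 0.278).

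Tyrobp and Trem2, adaptor and receptor of one signalling complex, differed in size. Tyrobp (1450792_at) ranged from 4.88 over 5.88 to 6.46 in pull-down and from 7.55 over 7.97 to 8.25 in whole brain, and it read 7.70, 7.19, 7.39 and 7.03 in supernatants 15, 14, 16 and 13. Supernatant lay between the other extracts, with no overlap of pull-down with either. The differences as deposited were −2.06 ± 0.17 from whole brain (4.17-fold lower, adjusted p = 3.8e-11) and −1.45 ± 0.21 from supernatant (adjusted p = 1.1e-06). From whole brain the difference shrank to −1.07 under quantile normalization and −0.90 under centring, so the fold holds for deposited values only. Against supernatant the call was lost after centring (−0.27, adjusted p = 0.188). Trem2 1421226_at ranged from 4.16 over 4.72 to 6.07 in pull-down and from 5.04 over 5.37 to 5.51 in whole brain, and it read 5.27, 5.87, 5.40 and 5.67 in supernatants 15, 14, 16 and 13. The groups overlapped, and pull-down control 11 lay above all arrays of the other extracts. As deposited Trem2 1421226_at was lower than whole brain (−0.54 ± 0.20, adjusted p = 0.0161), while quantile normalization made it higher (0.60 ± 0.13, adjusted p = 0.000331), as did centring (0.62 ± 0.13, adjusted p = 0.00029). Trem2 1421792_s_at averaged 4.29 ± 0.55 in pull-down and 5.25 ± 0.23 in whole brain, a difference of −0.96 ± 0.20 as deposited that turned to 0.08 after quantile normalization and 0.20 after centring (adjusted p = 0.551 and 0.159). Of the 10 genes, Trem2 was the one for which no probe set stayed lower than whole brain or supernatant under all 3 scalings.

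Aif1 had the greatest distance from whole brain among the 16 probe sets. Aif1 (1418204_s_at) ranged from 3.05 over 4.33 to 5.38 in pull-down and from 7.07 over 7.49 to 7.78 in whole brain, and it read 6.79, 6.64, 7.29 and 6.65 in supernatants 15, 14, 16 and 13. The lowest array of both other extracts was above the highest pull-down array, pull-down control 3. The differences were −3.20 ± 0.21 from whole brain (adjusted p = 1.1e-12) and −2.56 ± 0.27 from supernatant (adjusted p = 5.1e-09), and both stayed lower under all 3 scalings, at −2.21 and −2.04 from whole brain. Ctss (1448591_at) ranged from 7.50 over 7.98 to 8.53 in pull-down and from 9.79 over 9.98 to 10.27 in whole brain, and it read 8.72, 8.65, 8.61 and 8.30 in supernatants 15, 14, 16 and 13. The supernatants sat just above the pull-downs and overlapped them through supernatant 13, far below whole brain. As deposited, Ctss was 3.99-fold lower than in whole brain (adjusted p = 3.4e-12). From whole brain its difference shrank to −1.64 under quantile normalization and −0.84 under centring. Ctss stayed lower under both, but the fold holds for deposited values only. Ctss differed from supernatant by −0.58 ± 0.18 as deposited (adjusted p = 0.00504). The difference from supernatant was −0.13 under quantile normalization and 0.60 under centring (adjusted p = 0.505 and 0.0614).

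**Figure D2:**
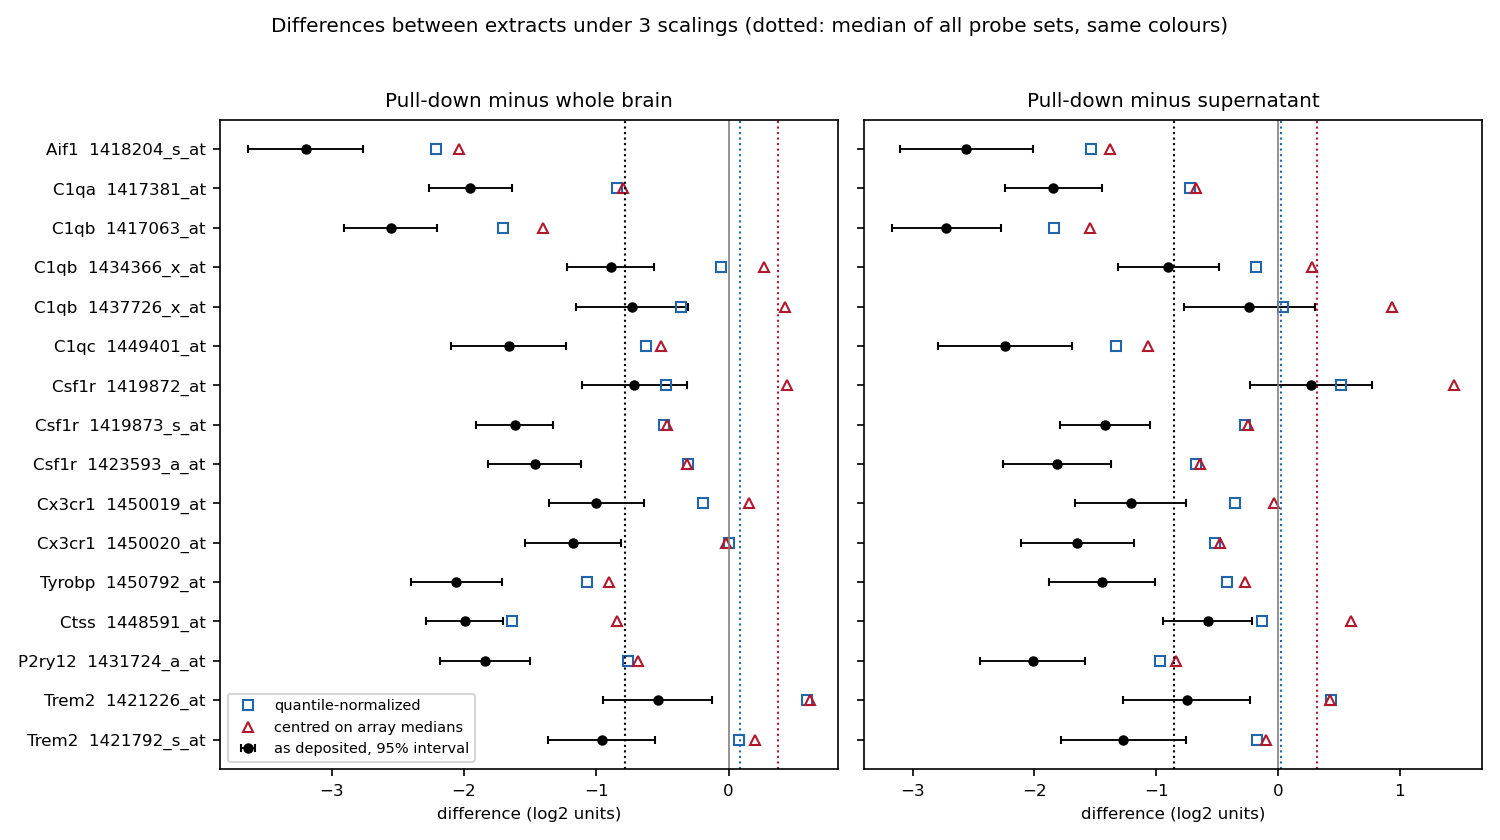
Difference in log2 units of pull-down from whole brain (left) and from supernatant (right) for the 16 probe sets: as deposited with the 95% interval of the limma fit (black), after quantile normalization (blue squares) and after centring each array on its median (red triangles). Dotted lines give the median of all 45037 probe sets under each scaling, and Aif1, C1qa, C1qb 1417063_at, Csf1r 1423593_a_at and P2ry12 were lower in both panels under all 3 scalings, while Trem2 1421226_at was lower as deposited and higher under both others.

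Under all 3 scalings, 8 of the 16 probe sets, of 7 genes, were lower than whole brain in pull-down, and 7, of 7 genes, lower than supernatant. The 5 probe sets in both counts belonged to Aif1, C1qa, C1qb, Csf1r and P2ry12. Relative to the median of all probe sets as deposited, the median of the 16 differed by −0.76 log2 units in the comparison with whole brain and by −0.58 in that with supernatant. Centring leaves these values as they are by construction, and quantile normalization gave −0.57 and −0.41.

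**Figure D3:**
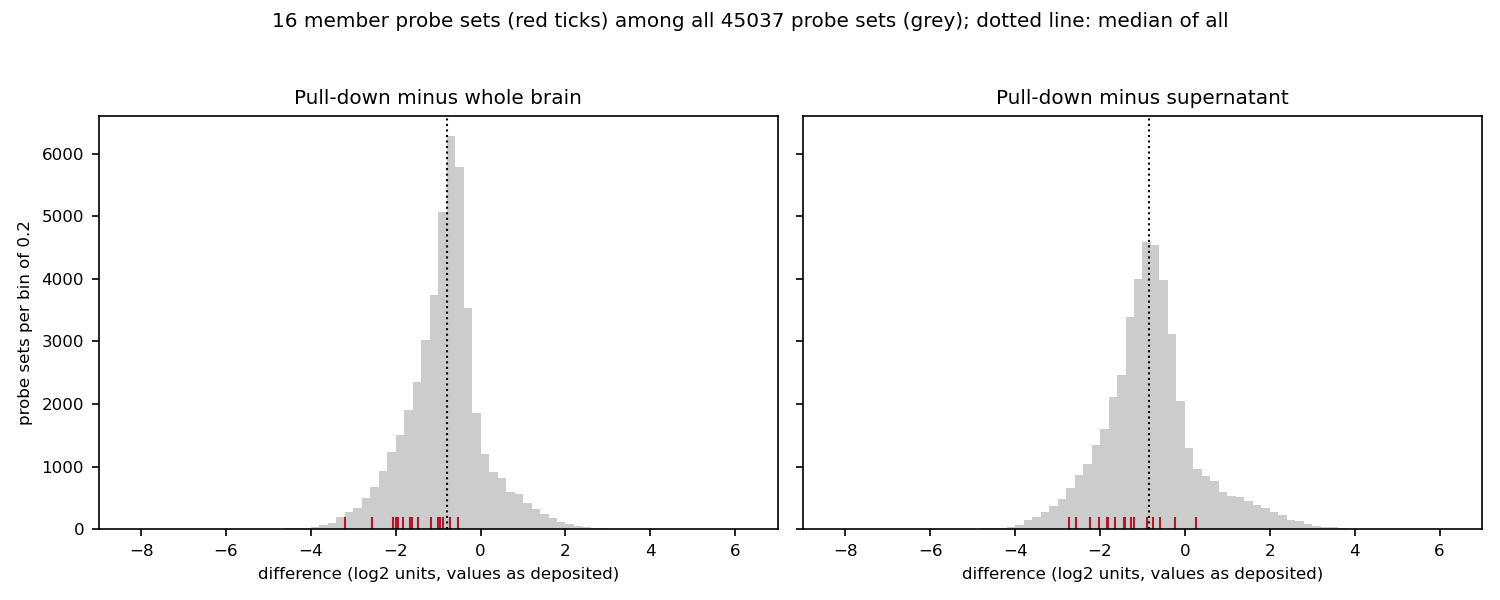
Number of probe sets per bin of 0.2 log2 units (grey bars) by their difference of pull-down from whole brain (left) and from supernatant (right), as deposited, with the 16 member probe sets as red ticks and the median of all as a dotted line. Members reach from −3.20 to −0.54 on the left, where the median of all probe sets is −0.78, and from −2.72 to 0.27 on the right, where it is −0.85.

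Whole brain and supernatant were set against each other to see where they differ in these genes. Whole brain was higher than supernatant for 2 of the 16 probe sets (limma, adjusted p under 0.05), where 8.89% of all probe sets were higher and 2.01% lower. Ctss was higher in whole brain by 1.42 ± 0.19 (adjusted p = 1.4e-05), with all 8 whole-brain arrays above all 4 supernatants. Csf1r 1419872_at was higher by 0.98 ± 0.26 (adjusted p = 0.0116), also without overlap, but it did not pass without supernatant 13 (0.69, adjusted p = 0.122) or after centring (1.00, adjusted p = 0.0685). Tyrobp (0.61 ± 0.22, adjusted p = 0.0817) and Aif1 (0.64 ± 0.28, adjusted p = 0.172) had higher means in whole brain without passing, and C1qc (−0.57 ± 0.28, adjusted p = 0.235) had a lower one. In Csf1r 1423593_a_at whole brain lay wholly below supernatant, without passing the test (−0.35 ± 0.23, adjusted p = 0.421). The fit shares 1 estimate of spread over all 24 arrays, and the pull-down arrays varied more. With array weights (limma), Aif1 (0.59, adjusted p = 0.00524), Tyrobp (0.63, adjusted p = 0.00149) and C1qb 1437726_x_at (0.49, adjusted p = 0.0398) were also higher in whole brain. C1qc (−0.51, adjusted p = 0.0397) and Cx3cr1 1450020_at (−0.51, adjusted p = 0.00662) were lower there. The share of all probe sets called with array weights is not given here. Non-overlap was seen for 2 probe sets above and 1 below, against 12.4% and 8.65% of all probe sets. With quantile normalization 3 of the 16 were higher in whole brain and 1 lower (11.4% and 9.61% of all), Tyrobp among the higher (0.65, adjusted p = 0.00953), and with centring 2 were higher and none lower (6.73% and 3.91%), Ctss and Tyrobp.

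The order of the groups followed from this. By their means, 9 of the 16 probe sets had their highest group in whole brain and 7 in supernatant. The neighbouring groups within an extract, sleep-deprived and control, differed in none of the 16 at an adjusted p under 0.05, and whole brain and supernatant differed in the 2 named above. The SD over an extract was larger in pull-down (0.29 to 0.62) than in whole brain (0.09 to 0.30) for all 16 probe sets.

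The second comparison asked whether 6 h of sleep deprivation changed these genes within an extract. In pull-down none of the 16 passed (limma, 6 against 6, adjusted p under 0.05), where 0% of all probe sets were lower and 0% higher. None had an unadjusted p under 0.05 either, against 0.955% of all, and the groups overlapped in all 16, where 0.0178% of all probe sets lay wholly below the controls and 0.04% wholly above. The largest difference was that of P2ry12, which read 4.66, 4.35, 4.35, 4.14, 4.41 and 4.23 in pull-down after sleep deprivation 1, 3, 7, 6, 10 and 12, and 5.35, 4.70, 4.90, 4.22, 4.81 and 4.86 in pull-down control 3, 4, 8, 13, 9 and 11. All 6 sleep-deprived arrays were below the control mean, and control 13 lay among them. The difference was −0.45 ± 0.23 (95% interval −0.94 to 0.03) and did not pass the adjustment. Over the 16 probe sets the differences ran from −0.45 to 0.25 with SEs of 0.23 to 0.34, and every 95% interval held 0.

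In whole brain none of the 16 passed either (limma, 4 against 4, adjusted p under 0.05), where 0.0111% of all probe sets were lower and 0.0355% higher. An unadjusted p under 0.05 was reached by 2 of the 16, against 10.9% of all. Aif1 read 7.35, 7.07, 7.46 and 7.26 in whole brain after sleep deprivation 21, 19, 18 and 20, and 7.70, 7.78, 7.53 and 7.70 in whole-brain control 23, 24, 22 and 25. All sleep-deprived arrays were below all controls, with a difference of −0.39 ± 0.12 (limma, adjusted p = 0.325). P2ry12 read 5.95, 6.56, 6.26 and 6.13 in whole brain after sleep deprivation 21, 19, 18 and 20, and 6.85, 6.56, 6.35 and 6.71 in whole-brain control 23, 24, 22 and 25. Its groups overlapped, and the difference was −0.39 ± 0.15 (limma, adjusted p = 0.386). The array medians moved the same way, at 6.09 ± 0.06 after sleep deprivation and 6.17 ± 0.05 in controls (SD, n = 4 each), and after centring on them Aif1 and P2ry12 both read −0.31 (adjusted p = 0.498 and 0.569). Non-overlap was seen below the controls for Aif1 and Cx3cr1 1450020_at (−0.21 ± 0.11, adjusted p = 0.512) and above them for Ctss (0.22 ± 0.11, adjusted p = 0.488), that is 2 and 1 of the 16, against 4.25% and 1.75% of all probe sets. Over the 16 the differences ran from −0.39 to 0.22. For the chains of C1q, C1qa differed by 0.06 ± 0.23 in pull-down and −0.08 ± 0.14 in whole brain, and C1qc by 0.03 ± 0.33 and 0.07 ± 0.13. The 3 probe sets of C1qb differed by 0.18 to 0.25 in pull-down and 0.04 to 0.11 in whole brain.

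**Figure D4:**
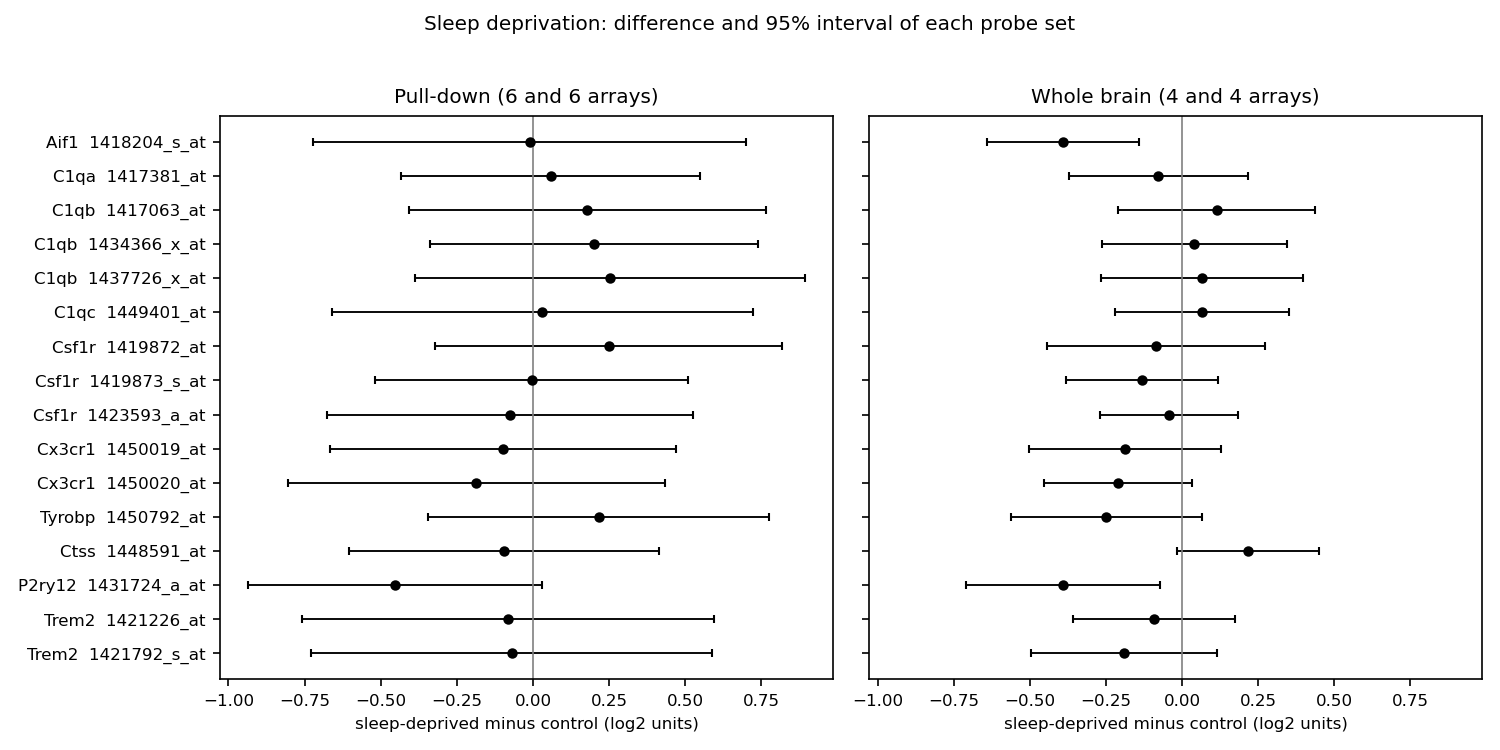
Difference in log2 units of sleep-deprived from control arrays for the 16 probe sets, with the 95% interval of the limma fit, in pull-down (left, 6 and 6 arrays) and whole brain (right, 4 and 4 arrays). In pull-down all 16 intervals hold 0, and in whole brain those of Aif1 and P2ry12 do not, but neither passed the adjustment over all 45037 probe sets.

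An interaction contrast over 20 arrays set the effect of sleep deprivation in pull-down against that in whole brain. None of the 16 passed (limma, adjusted p under 0.05, 0% of all probe sets in each direction), and none had an unadjusted p under 0.05, against 0.338% of all. The differences between the effects ran from −0.31 ± 0.30 for Ctss to 0.46 ± 0.35 for Tyrobp.

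All 10 ligands and partners of these genes were lower than whole brain and all 10 were lower than supernatant as deposited, where 76.3% and 67.4% of all probe sets were lower. Their medians were −1.09 and −1.64, against −0.78 and −0.85 for all probe sets. After quantile normalization 6 were lower in each comparison and none higher. Of all probe sets 26.2% were lower and 32.3% higher there against whole brain, and 27.6% and 27.2% against supernatant. After centring 2 were lower and 1 higher against whole brain (18.3% and 52% of all probe sets), with a median of 0.07. Against supernatant 3 were lower and none higher after centring (18.8% and 44.1% of all probe sets), with a median of −0.47. Cst3, an inhibitor of cathepsins, averaged 8.25 ± 0.63 in pull-down and 11.56 ± 0.07 in whole brain (SD), a difference of −3.31 ± 0.21 (SE). Apoe, a lipoprotein that TREM2 binds, averaged 5.38 ± 0.45 in pull-down and 8.37 ± 0.11 in whole brain, a difference of −2.99 ± 0.17. The ligands of Csf1r, Csf1 and Il34, differed from whole brain by −0.89 ± 0.22 and −1.13 ± 0.14, and Cx3cl1, the ligand of Cx3cr1, which neurons make, by −1.40 ± 0.29. Among signalling partners, Hcst, an adaptor beside Tyrobp, differed by −0.81 ± 0.17 and Syk, the kinase that Tyrobp recruits, by −0.90 ± 0.19. The remaining ones were Cd47 at −1.79 ± 0.30 and its receptor Sirpa at −1.04 ± 0.25, a pair known to hold back phagocytosis, and Cd74, the invariant chain that cathepsin S cleaves, at −1.04 ± 0.18. For sleep deprivation none of the 10 passed in pull-down or in whole brain (limma, adjusted p under 0.05). Of all probe sets 0% passed in pull-down, and 0.0111% were lower and 0.0355% higher in whole brain.

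Other complement genes were followed through 27 measured members of a list of 32. As deposited 24 were lower than whole brain and none higher, where 76.3% of all probe sets were lower, with a median of −0.72 against −0.78 for all probe sets. After quantile normalization 5 were lower and 10 higher, where 26.2% of all probe sets were lower and 32.3% higher. After centring 2 were lower and 15 higher, where 18.3% of all were lower and 52% higher. C1ra, a protease that C1q carries, differed from whole brain by −0.54 ± 0.17 (adjusted p = 0.00451), and C1s1, its partner protease, by −0.34 ± 0.20 without passing (adjusted p = 0.103). C2, the next substrate, differed by −0.74 ± 0.19, and the receptors for complement fragments, C3ar1 and C5ar1, by −1.23 ± 0.29 and −1.20 ± 0.23. Itgam and Itgb2, the chains of complement receptor 3, which are counted among the microglial genes below, differed by −0.38 ± 0.16 and −0.96 ± 0.19. The largest differences were those of Cfp, properdin of the alternative pathway, at −2.47 ± 0.26, and Serping1, the C1 inhibitor, at −1.57 ± 0.15, followed by C6, a part of the membrane attack complex, at −1.26 ± 0.30. C3 and C4b have no probe set with exactly 1 symbol in the annotation and are not reported.

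A list of 35 further microglial genes had 32 measured members. As deposited 28 were lower than whole brain and 1 was higher, with a median of −0.95, and 26 were lower and 3 higher against supernatant, where 76.3% and 67.4% of all probe sets were lower. With quantile normalization 9 were lower and 7 higher against whole brain (26.2% and 32.3% of all probe sets). Against supernatant 7 were lower and 6 higher (27.6% and 27.2% of all). With centring 8 were lower and 11 higher against whole brain (18.3% and 52% of all), and 6 lower and 10 higher against supernatant (18.8% and 44.1%). The purine receptor P2ry13 (−2.04 ± 0.18), the organic anion transporter Slco2b1 (−1.99 ± 0.13) and the lysophospholipid acyltransferase Lpcat2 (−1.94 ± 0.20) differed most from whole brain. The single higher gene, Sall1, a transcription factor of microglial identity, averaged 8.30 ± 0.62 in pull-down and 7.44 ± 0.26 in whole brain (0.86 ± 0.21, adjusted p = 0.000694), and was named after its values were seen. That call holds for its brightest probe set only. With the mean over each gene's probe sets, 31 of the 32 genes were lower than whole brain and none higher. Against supernatant 28 were lower and none higher by that measure. None of the 32 passed for sleep deprivation in pull-down or in whole brain (limma, adjusted p under 0.05). Of all probe sets 0% passed in pull-down, and 0.0111% were lower and 0.0355% higher in whole brain. The median differences of the 32 genes were −0.13 and −0.16, against −0.05 and −0.07 for all probe sets.

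Markers of other cell types were counted against whole brain as deposited, where 76.3% of all probe sets were lower. Against whole brain 15 of 16 genes of border macrophages and blood, 13 of 14 of endothelium and pericytes, 11 of 14 of astrocytes and 11 of 13 of oligodendrocytes were lower, with medians of −0.70, −1.71, −1.37 and −1.56. Of the astrocyte genes 1 was higher, and the differences of that list reached 1.69. By the mean over each gene's probe sets all 14 astrocyte genes were lower. With quantile normalization these lists had 3 lower and 6 higher, 10 and 1, 11 and 1, and 11 and 1. With centring they had 2 lower and 12 higher, 8 and 2, 5 and 3, and 6 and 2. Of all probe sets 26.2% were lower and 32.3% higher with quantile normalization, and 18.3% and 52% with centring. The genes farthest from whole brain were Alas2, S100a9 and Mrc1 (−2.53 to −1.50) for border macrophages and blood, Slco1c1, Vtn and Cldn5 (−3.39 to −2.83) for vessels, Mlc1, Aldoc and Aldh1l1 (−3.98 to −2.48) for astrocytes, and Mobp, Mag and Ugt8a (−3.20 to −2.19) for oligodendrocytes. Of 15 neuronal genes 7 were lower and 3 higher, with a median of −0.35. By the mean over each gene's probe sets 11 were lower and none higher, with a median of −1.46. With quantile normalization 8 of the neuronal genes were lower and 3 higher, and with centring 5 were lower and 8 higher. Uchl1, Tubb3 and Gap43 lay farthest from whole brain among them as deposited (−3.79 to −2.52). At the other end the differences of the neuronal list reached 1.47. Of the 11 genes that male brain should lack, 8 were lower and none higher, with a median of −0.56, and Prm1, Amelx and Prm2 lay farthest (−1.38 to −0.85). With quantile normalization 1 of these 11 was lower and 6 higher, and with centring 0 were lower and 10 higher. The mean over the 10 members' brightest probe sets was 6.04 ± 0.18 in pull-down after sleep deprivation and 6.05 ± 0.20 in pull-down control (SD, n = 6 each), 7.57 ± 0.08 in whole brain after sleep deprivation and 7.69 ± 0.09 in whole-brain control (n = 4 each), and 7.35 ± 0.19 in supernatant (n = 4). The mean of the neuronal genes was 10.27 ± 0.44 and 10.20 ± 0.49 in the pull-down groups, 11.01 ± 0.02 and 10.94 ± 0.06 in the whole-brain groups, each with sleep-deprived arrays before controls, and 10.36 ± 0.18 in supernatant.

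**Figure D5:**
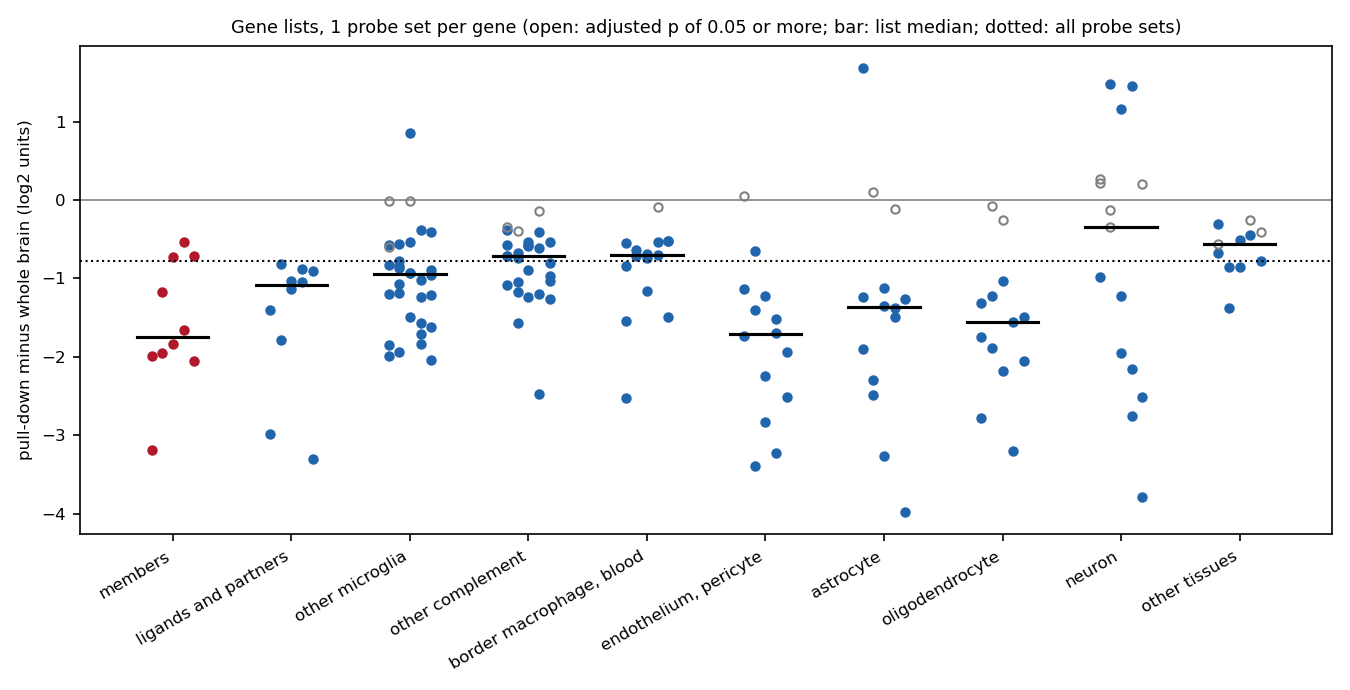
Difference in log2 units of pull-down from whole brain, as deposited, for each measured gene of 10 lists (points, 1 probe set per gene), with open points where the adjusted p was 0.05 or more, list medians as bars and the median of all probe sets as a dotted line. All 10 members lie below 0, and the list medians run from −1.75 for the members to −0.35 for neuronal genes. By the mean over each gene's probe sets they run from −1.83 for astrocytes to −0.54 for other tissues. The members lie at −1.75 there and neuronal genes at −1.46. Under centring the medians of the lists of ligands and partners, complement, other microglia, border macrophages, neurons and other tissues are above 0. The median of all probe sets is 0.37 there, and those of ligands and partners (0.07) and other microglia (0.21) lie below it.

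Across the 12 pull-down arrays, 11 of the 16 probe sets correlated positively with the array median and 5 negatively. Of all probe sets 76.8% correlated positively, and their median Pearson r, over all of them, was 0.649. The 11 had mean log2 values of 3.35 to 5.88 in pull-down and the 5 had means of 5.25 to 9.12. P-values are adjusted over these 16 relations. They are against no correlation and not against the median r of all probe sets, so they do not set a member apart from other probe sets. Trem2 1421792_s_at had Pearson r = 0.895 and Spearman rho = 0.930 (adjusted permutation p = 0.00142 and 0.00072), r = 0.813 without the 2 arrays farthest from the median, pull-down controls 4 and 11, and r = 0.931 in sleep-deprived and 0.880 in control arrays. Ctss had r = −0.690 and rho = −0.755 (adjusted permutation p = 0.0231 and 0.0121), r = −0.614 without those arrays, and r = −0.780 in sleep-deprived and −0.712 in control arrays. P2ry12 had r = 0.247 and rho = 0.0769 (adjusted permutation p = 0.441 and 0.817).

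Over all 24 arrays, the genes most like the mean of the members were Snf8, Etfb, Sfxn5, Tmem179, Fis1, Usp12, Micos13 and Atraid, with Pearson r from 0.979 to 0.988, against a median of 0.651 over all genes. All 8 had less signal in pull-down, by −3.74 to −2.04 log2 units relative to whole brain. By deviations from the group means they were Drc1, Ntpcr, Snf8, Ncald, Pik3c3, Bbs10, Atxn7l3 and Tsc22d4, with r from 0.837 to 0.887, against a median of 0.116. These are descriptions over 24 arrays that share extracts and array-wide levels.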

How the data were processed

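RNA was measured on Affymetrix arrays of 24 samples. The authors deposited 1 table of log2 values, made with RMA in the affy package per the submitters' processing notes, with no version or batching stated. RMA corrects background, normalizes and summarises probes into probe sets. The array medians differ between extracts, and no source used here states whether all arrays were normalized together. Of 45101 probe sets, 64 controls were left out of the tests. An array annotation of 2016 gave 34945 probe sets 1 symbol, 932 several and 9160 none. Members were named from probe sets with 1 symbol, and all 10 matched RefSeq.

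Differences were fitted in limma 3.58.1 (R 4.3.3, lmFit and eBayes) with Benjamini-Hochberg adjustment over 45037 probe sets and a threshold of 0.05. Extracts were compared in 1 fit of 24 arrays with 5 groups, sleep deprivation in the arrays of each extract, and the interaction in the 20 arrays of pull-down and whole brain. Single values used permutation tests with 100000 permutations (Python 3.11.15, scipy 1.17.1). The number of arrays limits the precision, and the fits were tested on simulated data. The labels give 10 sleep-deprived and 10 control mice, and they tie no supernatant to a pull-down, so arrays of different extracts may share an animal and p-values measure the spread between these arrays. Alternatives were quantile normalization, centring on the array median, array weights, a filter on low values, a trended prior, leaving out each array, leaving out the 2 pull-down arrays with the highest 18S signal, fits within a sleep state and 1 fit of all arrays.

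The members and lists were chosen with earlier results of these data known. A list gene was counted by its brightest probe set, with the mean over its probe sets as an alternative. Named are all members, their ligands and partners, set complement genes, the 3 genes of every other list farthest from whole brain, and the 8 genes most like the members by either measure.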

Additional observations from a re-analysis of the deposited data

Results flagged for a closer look

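Of 80 groups of 4 or 6 arrays tested for a single distant array with Dixon's criterion, 4 had one, and chance gives about 1 in 20 groups. C1qb 1434366_x_at read 8.32 in whole brain after sleep deprivation 21, against 7.81 to 7.83 in the other arrays of that group. The same array was distant for C1qb 1437726_x_at, at 9.92 against 9.30 to 9.40. Csf1r 1419873_s_at read 4.35 in pull-down after sleep deprivation 6, against 5.00 to 5.27 in the others. Cx3cr1 1450019_at read 4.20 in whole brain after sleep deprivation 18, against 4.61 to 4.69 in the others.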

How the results depend on the processing

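The comparisons of pull-down depended on the scaling. Against whole brain, quantile normalization gave 11 lower and 1 higher of the 16 probe sets, and centring gave 8 lower and 1 higher. Against supernatant they gave 9 lower and 2 higher, and 7 lower and 3 higher. Centring adds the same amount to every probe set of a comparison and puts the median of all at 0.37 against whole brain, so the signs that turn there follow the common shift, and C1qb 1434366_x_at, Cx3cr1 1450019_at and Trem2 1421792_s_at stayed below that median. The sign turned against whole brain after centring for C1qb 1434366_x_at (0.27), C1qb 1437726_x_at (0.42), Csf1r 1419872_at (0.44), Cx3cr1 1450019_at (0.15), Trem2 1421226_at (0.62) and Trem2 1421792_s_at (0.20), and after quantile normalization for Cx3cr1 1450020_at (0.0019), Trem2 1421226_at (0.60) and Trem2 1421792_s_at (0.077). Against supernatant it turned after centring for C1qb 1434366_x_at (0.28), C1qb 1437726_x_at (0.94), Ctss (0.60) and Trem2 1421226_at (0.42). After quantile normalization it turned there for C1qb 1437726_x_at (0.039) and Trem2 1421226_at (0.44). A filter on low values left 10 of the 16, of which 10 were lower than whole brain and 8 lower than supernatant, where 69.1% and 61.2% of all probe sets left were lower. The filter uses the mean over all arrays fitted, so members can pass through the extracts where they are high, and these counts support nothing. For whole brain minus supernatant, quantile normalization gave 1 lower, where 9.61% of all probe sets were lower, and array weights gave 2 lower and 5 higher. Leaving out 1 array gave 16 to 16 lower than whole brain, 14 to 14 lower than supernatant, and 1 to 3 higher in whole brain than in supernatant, with 1 without supernatant 13. Sleep deprivation and the interaction gave 0 calls among the 16 under every alternative run for them. Within a sleep state, 13 (sleep-deprived) and 15 (control) were lower than whole brain, and 14 and 12 lower than supernatant. Shares of all probe sets are not given here for array weights, for fits without 1 array or within a sleep state. Those counts are therefore not results about the members. No paired analysis was possible because the groups compared share fewer than 2 replicate numbers. The deposited values carry no detection calls, so signal over background was not tested.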
